A study of Mus musculus with 4 samples.

Results

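The 10 genes described here encode the main steps of antigen presentation by MHC class I in the mouse: the classical heavy chains H2-K1 and H2-D1, the light chain B2m, the peptide transporter genes Tap1 and Tap2, the loading factor gene Tapbp, the inducible catalytic proteasome subunits Psmb8, Psmb9 and Psmb10, and the class I transactivator gene Nlrc5. They were taken by gene symbol from a table of 48709 genes, in which all 10 were found. All 10 also had a mean of at least 10 normalized read counts over the libraries and so were among the 18436 genes tested. RNA came from the left lung lobe of untreated C57BL/6 mice at postnatal day 1, from 2 mice homozygous for the SL allele of Ryk (RykSL/SL, the mutant) and 2 wild-type mice, with 1 library per mouse. Ryk encodes a receptor for WNT ligands, and what the SL allele does to it is not stated in the labels. The comparison asks what differs between these genotypes in the newborn lung.

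Class I molecules display peptides from inside the cell on its surface, where CD8 T cells and natural killer cells read them. Proteasomes cut proteins into peptides, the TAP transporter carries them into the endoplasmic reticulum, and tapasin with other chaperones helps to fit them into a heavy chain paired with beta-2 microglobulin. Interferons raise most of these genes, and NLRC5, acting with RFX factors, drives the heavy chain promoters. Nearly all nucleated cells make some class I, and leukocytes and endothelium make much of it.

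The normalized counts summed to between 18658239 and 19987634 per library. Ryk itself was measured at 2757 and 2203 counts in mutant and 2528 and 2525 counts in wild-type lungs. Sex-linked genes set mutant replicate 1 apart, with 24836 counts of Xist against 7 to 23 in the others, and 56 counts of the Y-linked gene Ddx3y against 2197 to 3769. The SD of the log2 difference over genes was 0.60 between the mutant lungs and 0.314 between the wild-type lungs. For some genes and lists, results without mutant replicate 1 are also given below. Lung identity was clear in all libraries: the 13 epithelial markers, the surfactant protein genes among them, summed to between 288886 and 379850, and none of them was at 0.

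Promoter sequences of 8 of the 10 genes were found in RefSeq (build GRCm38.p6, 250 bases before to 50 after the start site). Tap2 and Nlrc5 had none there. The windows below are shown because they hold the elements through which class I genes are known to be driven, and because Tap1 and Psmb9 are read outward from one shared stretch of DNA. The windows are H2-K1 at chr17:34000298-34000597 on the minus strand, H2-D1 at chr17:35262844-35263143 on the plus strand, B2m at chr2:122147437-122147736 on the plus strand and Tap1 at chr17:34187306-34187605 on the plus strand. Capitals mark matches to the NF-kappaB consensus (H2-K1, H2-D1 and B2m) and to the core of the interferon-stimulated response element, which is GAAA, any 2 bases and GAAA again (the first capitals in B2m).
H2-K1: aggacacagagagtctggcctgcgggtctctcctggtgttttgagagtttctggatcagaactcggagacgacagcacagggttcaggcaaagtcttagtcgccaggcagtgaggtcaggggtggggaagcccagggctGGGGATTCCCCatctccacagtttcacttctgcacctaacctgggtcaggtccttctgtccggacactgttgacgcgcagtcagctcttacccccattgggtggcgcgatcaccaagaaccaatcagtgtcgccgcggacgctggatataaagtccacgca
H2-D1: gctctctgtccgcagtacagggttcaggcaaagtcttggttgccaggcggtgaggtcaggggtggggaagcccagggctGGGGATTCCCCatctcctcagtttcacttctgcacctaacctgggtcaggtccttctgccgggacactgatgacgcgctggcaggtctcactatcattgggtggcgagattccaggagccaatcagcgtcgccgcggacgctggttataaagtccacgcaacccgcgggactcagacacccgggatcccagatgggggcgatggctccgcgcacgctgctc
B2m: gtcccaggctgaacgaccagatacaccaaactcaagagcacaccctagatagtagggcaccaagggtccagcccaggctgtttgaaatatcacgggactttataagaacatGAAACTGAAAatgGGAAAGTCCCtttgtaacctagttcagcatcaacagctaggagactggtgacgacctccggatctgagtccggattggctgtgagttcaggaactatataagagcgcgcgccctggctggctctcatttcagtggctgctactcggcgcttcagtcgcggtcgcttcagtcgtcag
Tap1: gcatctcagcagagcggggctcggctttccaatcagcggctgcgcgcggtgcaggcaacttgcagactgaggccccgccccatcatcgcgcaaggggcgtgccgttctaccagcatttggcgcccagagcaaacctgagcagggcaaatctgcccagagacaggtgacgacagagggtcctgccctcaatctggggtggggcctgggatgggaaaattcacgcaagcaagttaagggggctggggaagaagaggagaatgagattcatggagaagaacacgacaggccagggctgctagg

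H2-K1 and H2-D1 held the same capital run, at bases 140 to 150 and 80 to 90 of their windows, and it reads as an NF-kappaB consensus on both strands. B2m held the interferon element core at bases 112 to 121 and an NF-kappaB match at bases 125 to 134. Searched on both strands, the interferon element core was present in the window of 1 of the 8 genes and in 3.44% of all 32851 promoter windows of that length in the table, and the NF-kappaB consensus in 3 of the 8 and in 8.46% of all windows. Only exact matches were counted, so variant forms of the interferon element in the other windows, those of H2-K1 and H2-D1 included, would be missed. The motif TGACG, part of the cyclic AMP response element, occurred in 5 of the 8 genes and 20.8% of all windows, and CCAAT in 6 of the 8 and 37.4%. The Tap1 and Psmb9 windows overlap by 275 bases, with start sites 226 bases apart on opposite strands, so they share their TGACG and CCAAT matches. Psmb8 and Psmb10 held none of these motifs. A match is a description of letters, and the RNA data do not show which factors bind there.

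None of the 10 genes passed the test between the genotypes (limma on log2(value + 1) with the variance modelled on the mean, adjusted p under 0.05), where 2.39% of all tested genes did, 0.917% lower and 1.47% higher. At an unadjusted p under 0.05, 5 of the 10 were lower in the mutant and none higher, beside 9.64% of all tested genes lower at that level. Fold changes, given as mutant minus wild type on that log2 scale, were below 0 for 9 of the 10 genes and for 51.7% of all tested genes. Both mutant values lay below both wild-type values for 7 of the 10, beside 26.9% of all tested genes. The median fold change was -0.44, where that over all tested genes was -0.02. In mutant replicate 1 the median difference from the wild-type mean was -0.25, and in mutant replicate 2 it was -0.62. In bulk lung RNA, fewer cells of a type and less RNA per cell cannot be told apart.

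**Figure D1:**
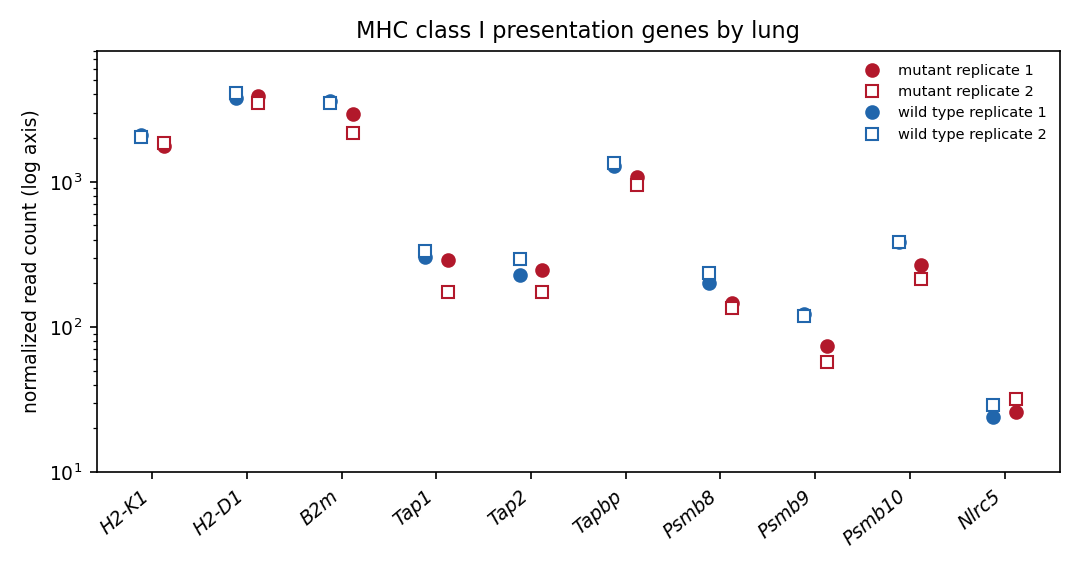
Normalized read counts (log axis) of the 10 genes in each of the 4 lungs, wild type in blue and mutant in red, with circles for replicate 1 and squares for replicate 2. The wild-type points sit above both mutant points for 7 genes, while those of H2-D1, Tap2 and Nlrc5 interleave.

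The subunits of the inducible proteasome stood furthest below the wild type. Psmb9 (ENSMUSG00000096727, chromosome 17, positions 34181988 to 34187764, GRCm38), a catalytic subunit that takes the place of Psmb6, had 74 and 57 normalized counts in mutant lungs, beside 123 and 119 in wild-type lungs. Both mutant lungs were low and the groups did not overlap. Its log2 fold change, -0.89, had a standard error of 0.23 (limma, adjusted p = 0.123). Psmb10 (ENSMUSG00000031897, chromosome 8, positions 105935735 to 105938444), which replaces Psmb7, had 265 and 213 against 383 and 384. Its wild-type lungs were nearly equal, and both mutant lungs lay below them, mutant replicate 2 the lower. The fold change of -0.69 had a standard error of 0.18 (limma, adjusted p = 0.119). Psmb8 (ENSMUSG00000024338, chromosome 17, positions 34197721 to 34201454), which replaces Psmb5, stood at 146 and 136 against 202 and 237. Here the mutant lungs were close to each other and again below the wild type. With a standard error of 0.19, its fold change was -0.63 (limma, adjusted p = 0.151).

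The constitutive partners of these subunits were nearer to the wild type. Psmb5, the chymotrypsin-like subunit of the ordinary proteasome, had 771 and 716 normalized counts against 861 and 842 (-0.20, limma, adjusted p = 0.471). Psmb6 had 1559 and 1796 against 1976 and 1848 (-0.19, adjusted p = 0.507), and Psmb7 737 and 588 against 756 and 718 (-0.16, adjusted p = 0.63). None of the 3 passed, and their 95% intervals reached down to between -0.53 and -0.57. Over the 14 core subunit genes outside the inducible ones, none passed and the median was -0.16. All 14 fold changes were below 0, beside 51.7% of those of all tested genes. Psmb2 had a fold change of -0.43 (limma, adjusted p = 0.219), and of -0.58 without mutant replicate 1.

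To compare inducible with constitutive subunits within each library, values were divided by exon length and the inducible subunit was expressed as a percentage of its pair. Psmb10 made up 41.9% and 42.1% of the Psmb10 and Psmb7 pair in mutant lungs, where the wild type had 50.4% and 51.8%. The Psmb8 share of its pair with Psmb5 was 4.79% and 4.81% against 5.87% and 6.96%, and the Psmb9 share of its pair with Psmb6 was 2.37% and 1.60% against 3.09% and 3.19%. In all 3 pairs both mutant lungs were below both wild-type lungs. Over the 3 pairs together the inducible share was 9.44% ± 1.22 (SD, n = 2) in the mutant and 12.9% ± 0.608 (SD, n = 2) in the wild type, a difference of -3.45 percentage points. A two-sided exact permutation test of 2 against 2 lungs gave p = 0.333, the smallest it allows. The size of a share depends on the annotated exon lengths, and of the 50-base sequences of Psmb5 transcripts 54.1% occur in other genes, mostly pseudogenes, so the shares are not molar fractions.

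**Figure D2:**
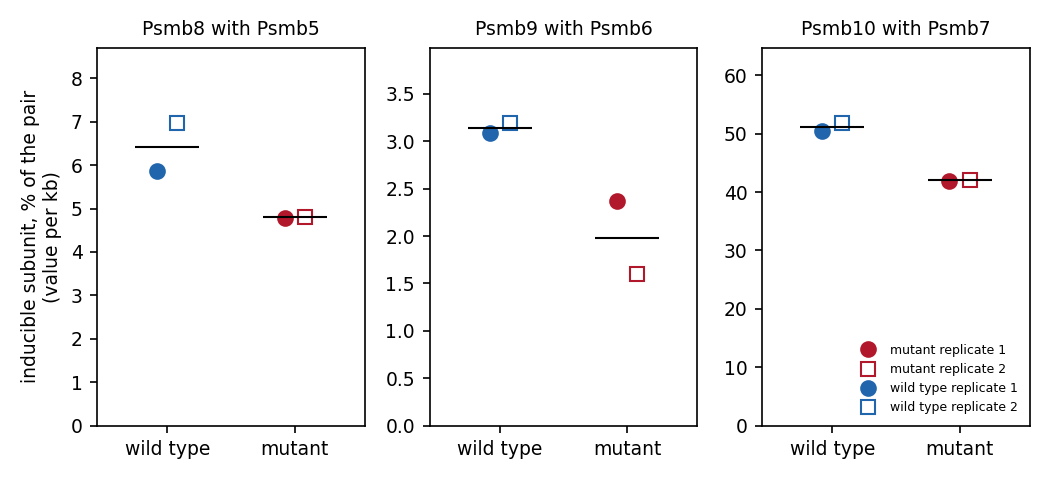
Each panel plots the inducible subunit as a percentage of the pair it forms with its constitutive counterpart, from values per kb of exon, with 1 point per lung and a line at the mean of 2 lungs. For Psmb10 the mutant lungs sit at 41.9% and 42.1% and the wild-type lungs at 50.4% and 51.8%.

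The transporter genes separated the mutant lungs from each other. Tap1 (ENSMUSG00000037321, chromosome 17, positions 34187553 to 34197225), a subunit of the ATP-driven peptide pump, had 288 and 173 normalized counts (mutant) against 301 and 331 (wild type). Mutant replicate 2 was low, while mutant replicate 1 lay just under the wild-type values. The fold change, -0.50, had a standard error of 0.27 (limma, adjusted p = 0.352). Tap2 (ENSMUSG00000024339, chromosome 17, positions 34203527 to 34216321), the partner subunit, had 247 and 175 against 227 and 292. Mutant replicate 1 fell between the wild-type lungs, so the groups overlapped. Its fold change of -0.31 had a standard error of 0.24 (limma, adjusted p = 0.521). Tapbp (ENSMUSG00000024308, chromosome 17, positions 33915899 to 33929288), which encodes tapasin, had 1071 and 945 against 1286 and 1351, with no overlap. Here the fold change was -0.39 and its standard error 0.14 (limma, adjusted p = 0.21).

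B2m (ENSMUSG00000060802, chromosome 2, positions 122147686 to 122153083), the light chain shared by all class I molecules, had 2928 and 2168 normalized counts in mutant lungs, where the wild type had 3599 and 3466. Both mutant lungs were below the wild type, mutant replicate 2 by more. The mutant mean was 72.1% of the wild-type mean, and the fold change of -0.49 had a standard error of 0.18 (limma, adjusted p = 0.218). The heavy chains were closer to the wild type. H2-K1 (ENSMUSG00000061232, chromosome 17, positions 33996017 to 34000333) had 1766 and 1859 against 2096 and 2027. The groups did not overlap, but the mutant mean was 87.9% of the wild-type mean, and the fold change of -0.19 had a standard error of 0.13 (limma, adjusted p = 0.478). H2-D1 (ENSMUSG00000073411, chromosome 17, positions 35262730 to 35267499) had 3895 and 3465 against 3753 and 4080, and the groups overlapped. The fold change of -0.09 had a standard error of 0.15 and a 95% interval from -0.45 to 0.27 (limma, adjusted p = 0.771).

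Nlrc5 (ENSMUSG00000074151, chromosome 8, positions 94434356 to 94527272), the transactivator of class I promoters, was the least abundant of the 10, at 26 and 32 normalized counts in mutant and 24 and 29 in wild-type lungs. The groups overlapped, and the fold change of 0.12 had a 95% interval from -0.65 to 0.89 (limma, adjusted p = 0.861). Its sign turned, to -0.020 without mutant replicate 2 and to -0.0073 without wild-type replicate 1.

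**Figure D3:**
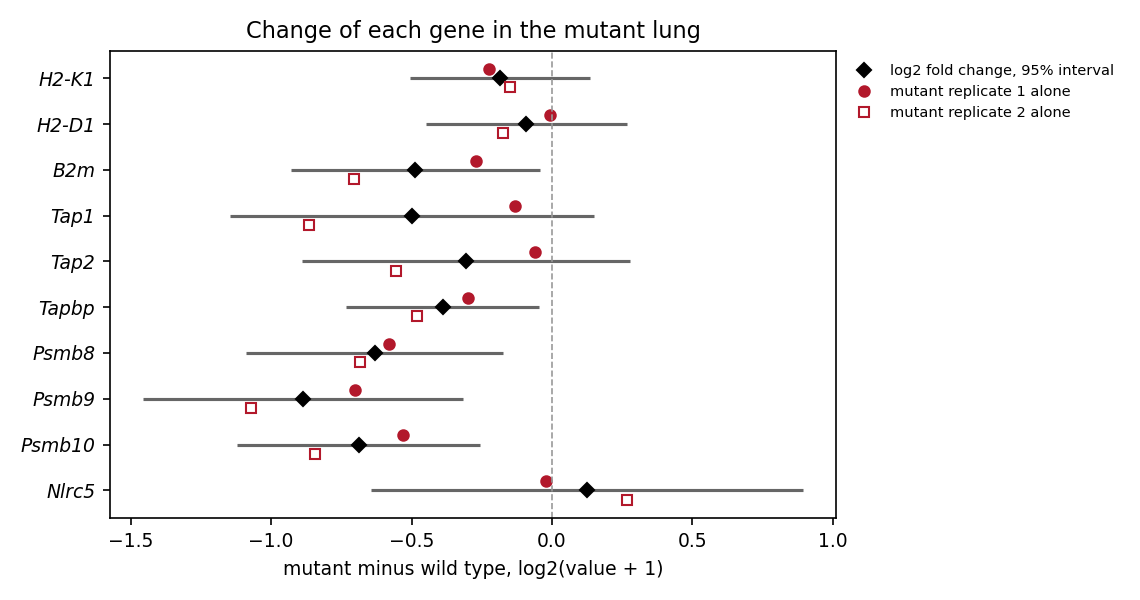
Log2 fold change of each gene (diamonds) with its 95% interval from limma, and the difference of each mutant lung from the wild-type mean (red circles and squares), on the log2(value + 1) scale. The intervals of B2m, Tapbp, Psmb8, Psmb9 and Psmb10 lie below 0, and the square of mutant replicate 2 is left of the circle of mutant replicate 1 for every gene but H2-K1 and Nlrc5.

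With mutant replicate 1 left out, so that all 3 remaining lungs had Y-linked transcripts, 4 of the 10 genes passed and all 4 were lower, beside 6.43% of all tested genes called lower in that comparison. These were B2m (-0.70, limma, adjusted p = 0.041), Tap1 (-0.86, adjusted p = 0.0491), Psmb9 (-1.07, adjusted p = 0.0461) and Psmb10 (-0.85, adjusted p = 0.0425). Tapbp (-0.48, adjusted p = 0.0538) and Psmb8 (-0.68, adjusted p = 0.0818) did not pass. This comparison has a single mutant lung, which is taken to vary as much as the wild-type pair. Without mutant replicate 2, the values were -0.27 for B2m, -0.13 for Tap1, -0.70 for Psmb9 and -0.53 for Psmb10. No gene at all was called in that comparison, so the lack of a call there says nothing particular of the 10. The proteasome subunits were thus below the wild type by at least 0.53 on the log2 scale in each mutant lung taken alone, whereas Tap1 was so only in mutant replicate 2.

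Levels can be compared between the genes only per length of exon. On that scale B2m was highest, at 2521 to 4185 normalized counts per kb over the 4 lungs, followed by H2-D1 (1344 to 1582), H2-K1 (601 to 713), Tapbp (261 to 372) and Psmb10 (125 to 225). These 5 ranges did not overlap with their neighbours. Tap2 (46.3 to 77.2), Psmb8 (40.2 to 70.1), Tap1 (31.6 to 60.5) and Psmb9 (15.6 to 33.6) followed. The ranges of Tap2, Psmb8 and Tap1 overlapped, so their order was not separated from the spread between lungs, while Psmb9 lay wholly below Tap2 and Psmb8 and was below Tap1 in each of the 4 lungs. Nlrc5 was lowest, at 2.83 to 3.77 per kb. Lengths are those of all annotated exons joined, which lowers the level of genes with long alternative transcripts.

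Related genes can share reads, which bears on these values. Of the 50-base sequences of H2-K1 and H2-D1 transcripts, 9.63% and 12.8% also occur in transcripts of other genes, mostly other H2 heavy chains, while B2m and Psmb10 share none. The share was 23.2% for Tapbp, 11.9% for Psmb8 and 11.6% for Tap2, each mostly with an overlapping gene. Exons of Tap1 and Psmb9 overlap on opposite strands over 212 bases, those of Psmb8 overlap the opposite-strand gene Gm20496 over 498 bases, and those of Tapbp overlap Gm19412 on the opposite strand over 904 bases and Zbtb22 on the same strand over 149. No label or header states the strand setting of the counting, so reads of these stretches cannot be assigned with certainty.

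Of 23 other class I heavy chain genes, 18 were tested, 1 fell and none rose, beside 0.917% of all tested genes called lower. Mr1, on chromosome 1, which presents vitamin B metabolites to mucosal-associated invariant T cells, fell from 756 and 705 to 368 and 290 normalized counts (-1.16, standard error 0.17, limma, adjusted p = 0.0347). Its fold change was -0.99 without mutant replicate 2, -1.11 without wild-type replicate 1 and -1.21 without wild-type replicate 2. No gene at all was called in these comparisons, so the loss of the call there says nothing particular of Mr1. Without mutant replicate 1, the fold change was -1.33 for Mr1 and -0.79 for Cd1d1. The lipid-presenting Cd1d1 had 278 and 237 against 403 and 418 without passing (-0.68, adjusted p = 0.106). Among the 13 tested heavy chains of the H2 region besides the classical pair, none passed, 11 had fold changes below 0 and the median was -0.19. The lowest was H2-M3, which presents formylated peptides, at 45 and 34 against 69 and 72 (-0.83, adjusted p = 0.172), and the highest was H2-M5, at 31 and 61 against 28 and 42 (0.34, adjusted p = 0.697). Qa-1, encoded by H2-T23 and read by natural killer cell receptors, had 941 and 1067 against 915 and 1031 (0.04, adjusted p = 0.899), a value whose sign flips with other scalings. H2-Q7 had 252 and 280 against 276 and 318 (-0.16, adjusted p = 0.656). Many of these genes are near copies, with 53.5% of the 50-base sequences of H2-T22 and 26.5% of those of H2-Q7 found in other genes. H2-M3, H2-M5, Cd1d1 and H2-T22 were named after their values were seen.

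**Figure D4:**
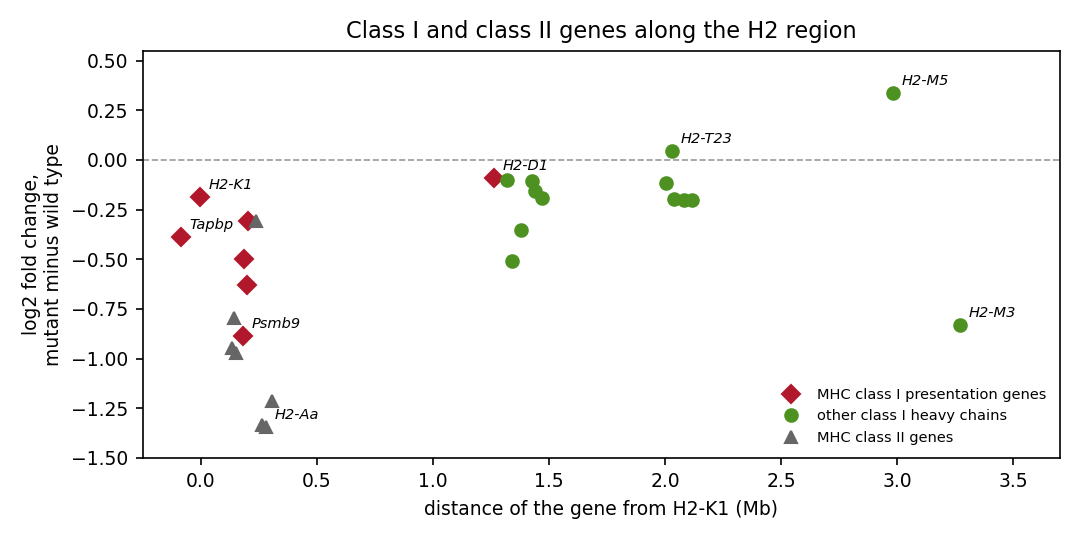
Log2 fold change of tested class I presentation genes (diamonds), other class I heavy chains (circles) and MHC class II genes (triangles) plotted by distance from H2-K1 on chromosome 17, in Mb. H2-K1 and H2-D1 lie at -0.19 and -0.09, Psmb9 at -0.89, and the class II gene H2-Aa at -1.34.

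A list of genes for loading and trimming class I peptides, which also held the glycolipid-synthesis gene B3gnt5, gave no calls. Of 18 tested, none passed and the median was -0.34. At an unadjusted p under 0.05 (limma), 5 were lower, B3gnt5 among them, and 2 higher, beside 9.64% of all tested genes lower. Calreticulin, Calr, a chaperone of the loading complex, had 4037 and 3553 normalized counts against 7497 and 5854 (-0.81, limma, adjusted p = 0.0865), with no overlap. Without mutant replicate 1, the fold change in this list was -1.125 for Blmh and -0.58 for Erap1. With all 4 lungs, Canx, for the membrane-bound relative of calreticulin, did not pass either (-0.41, limma, adjusted p = 0.252). Nor did the disulphide isomerase gene Pdia3 (-0.36, adjusted p = 0.318) or the peptide-trimming protease gene Erap1 (-0.32, adjusted p = 0.417). B3gnt5, a glycolipid-synthesis enzyme, had 121 and 104 against 248 and 210 (-1.02, adjusted p = 0.0652). Among 9 proteasome activator and assembly genes none passed. Psme2, a subunit of the interferon-inducible activator, had 858 and 886 against 1436 and 1257 (-0.62, adjusted p = 0.0916), and its partner Psme1 had 1483 and 1230 against 1735 and 1617 (-0.31, adjusted p = 0.32). Of the Psme2 50-base sequences, 28.3% are shared, chiefly with Psme2b.

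None of 25 regulators of class I transcription passed, with a median of -0.05. Irf8, a factor of myeloid and B cells, had 221 and 263 normalized counts against 457 and 443 (-0.90, limma, adjusted p = 0.0591), and Prdm1, a repressor, had 251 and 186 against 489 and 433 (-1.09, adjusted p = 0.0589). The groups overlapped for neither of them, and with equal library totals Irf8 passed (-0.98, limma, adjusted p = 0.0467). Irf1, a direct activator of Tap1 and Psmb9, had 478 and 612 against 682 and 683 (-0.34, adjusted p = 0.334), and Rfx5, which works with NLRC5 on class I promoters, 157 and 140 against 191 and 201 (-0.40, adjusted p = 0.286). Ezh2, which can silence class I genes, had 599 and 994 against 546 and 537 (0.51, adjusted p = 0.316), and Ciita, the class II transactivator, 10 and 7 against 16 and 32 (-1.34, adjusted p = 0.205). Without mutant replicate 1, Irf8 (-0.77, limma, adjusted p = 0.0444), Prdm1 (-1.30, adjusted p = 0.041) and Ezh2 (0.88, adjusted p = 0.0408) were among the genes that passed.

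Of 13 tested interferon receptor and signalling genes, 1 was called higher, beside 1.47% of all tested genes. Ifngr1, the ligand-binding chain of the interferon gamma receptor, rose from 1328 and 1286 to 3688 and 2512 normalized counts (1.22, standard error 0.21, limma, adjusted p = 0.0452), but did not pass with equal library totals (adjusted p = 0.0625) or quantile normalization (0.0581). Transcripts of interferon gamma itself (Ifng) stood at 1 or 2 in every lung. Of 34 tested interferon-induced genes outside the class I pathway, 2 fell and none rose, beside 0.917% of all tested genes called lower. Their median was -0.70, and fold changes were below 0 for 33 of the 34 and for 51.7% of all tested genes. Iigp1, a GTPase directed at intracellular parasites, fell from 1487 and 1494 to 690 and 559 (-1.26, adjusted p = 0.0236), and Ifit1, which binds foreign RNA, from 226 and 223 to 99 and 91 (-1.23, adjusted p = 0.0341). Without mutant replicate 1, 13 of the 34 were called lower and none higher, beside 6.43% of all tested genes called lower there, and in the signalling list Ifngr1 and Socs3 were called higher and Usp18 lower. No gene was called in limma without mutant replicate 2, where Ifngr1 was at 1.496, Iigp1 at -1.11 and Ifit1 at -1.17 (adjusted p of 0.0937 to 0.0966), nor without either wild-type lung, where these genes lay at 1.20 to 1.24, -1.26 and -1.22 to -1.24 (adjusted p of 0.768 to 0.909).

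In 9 tested MHC class II pathway genes none passed and the median was -0.97. All their fold changes were below 0, beside 51.7% of those of all tested genes. H2-Aa had 89 and 57 normalized counts against 182 and 183 (-1.34, limma, adjusted p = 0.0663). The median of the 9 was -1.58 without mutant replicate 1 and -0.39 without mutant replicate 2. In the same comparisons the median of the 10 class I presentation genes was -0.62 and -0.25, so the class II genes lay lower in both. Receptors for class I were scarcely measured: 3 of 13 were tested. Klrd1, a natural killer cell receptor subunit that reads Qa-1, had 4 and 6 against 16 and 17 (adjusted p = 0.142), and the inhibitory myeloid receptor gene Pirb 228 and 252 against 261 and 291 (adjusted p = 0.556).

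**Figure D5:**
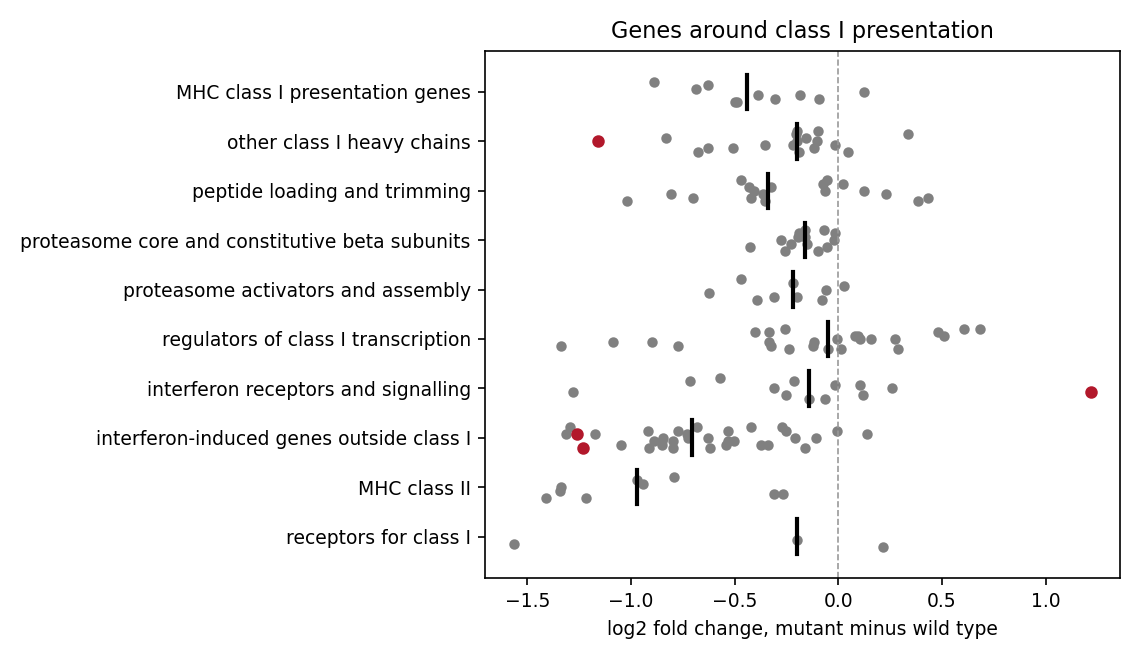
Log2 fold changes of the tested genes of each list (points; red where limma's adjusted p was under 0.05) and the list's median (black bar). The median is -0.44 for the MHC class I presentation genes, -0.16 for the core proteasome, -0.70 for interferon-induced genes and -0.97 for MHC class II.

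Markers of macrophages and B cells moved with the genotype beside these genes, while those of other leukocytes gave a mixed picture. The 16 macrophage and monocyte markers summed to 21745 and 20511 normalized counts against 39321 and 29669 in the wild type, and 14 of the 16 had both mutant values below both wild-type values, beside 26.9% of all tested genes. Another 1 of the 16 had both mutant values above both wild-type values, beside 4738 of the 18436 tested genes. It was higher at an unadjusted p under 0.05 (limma) without being called. Ms4a7 (-1.69, limma, adjusted p = 0.036) and Siglecf (-3.29, adjusted p = 0.0266) of this list fell. The 9 B cell markers summed to 492 and 335 against 1074 and 1086, and the antibody chain genes Ighm (-1.43, limma, adjusted p = 0.0387) and Igkc (-1.82, adjusted p = 0.029) and the surface marker gene Ms4a1 (-2.10, adjusted p = 0.0171) fell. Sums of the 13 T and natural killer cell markers (200 to 206 against 155 to 222), the 8 dendritic cell markers (921 to 1424 against 1235 to 1240), the 10 neutrophil markers (6261 to 9689 against 6778 to 6972) and the 12 endothelial markers (32748 to 49260 against 40882 to 44449) overlapped between the genotypes. Of the 5 T and natural killer cell markers tested, 4 had fold changes below 0, but Prf1, which encodes perforin, rose from 10 and 8 to 46 and 123 (2.94, limma, adjusted p = 0.048). The neutrophil markers had a median of 0.03, with 4 of 8 below 0 and none called. The 13 epithelial markers summed to 323141 and 288886 against 379850 and 356999, without overlap. Their median was 0.02, with 6 of 13 fold changes below 0 and none called. The 12 mesenchymal markers summed to 173419 and 130886 against 121826 and 125605, with a median of -0.54, and among them Lum and Meox2 fell and Pdgfra rose. With equal library totals Prf1 and Pdgfra did not pass, nor did Pdgfra with quantile normalization. Without mutant replicate 1 the median fold changes were -0.64 for macrophage, -1.70 for B cell and 0.34 for neutrophil markers. They were -0.515 for mesenchymal, -0.38 for endothelial and -0.12 for epithelial markers. For T and natural killer cell markers the median was -1.05, for dendritic cell markers -0.14 and over all tested genes -0.02. Lum was not called in that comparison. No marker of these lists was at 0 in all libraries. Of 12 glucocorticoid-responsive genes 10 rose, beside 1.47% of all tested genes called higher. Among them were Zbtb16 (4.63), Fkbp5 (2.92), Cdkn1a (2.72) and Tsc22d3 (2.09), with limma adjusted p between 0.00415 and 0.00577. With quantile normalization or equal library totals 8 were called, and Dusp1 and Sgk1 did not pass. These calls, like those of the markers, were lost without mutant replicate 2 or either wild-type lung, where no gene at all was called. The genes named with values lay at 2.09 to 4.95 there. The part of these cell types, of the hormone-responsive genes and of the sex difference in the class I values was not tested.

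The protein-coding genes whose pattern over the 4 lungs was most like the mean of the 10, by Euclidean distance between centred log2 values, were Cd3eap, Mcat, Ccdc124, Adk and Tmem132a, at distances of 0.0132 to 0.0391. The mean pattern was -0.08 and -0.32 in mutant and 0.15 and 0.25 in wild-type lungs. With 4 libraries such likeness describes these samples and no more.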

How the data were processed

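RNA was extracted from left lung lobes of 2 mice per genotype and made into stranded poly(A) libraries, per the labels' protocols. The submitters' processing notes name FastQC, STAR 2.4.0a, featureCounts 1.5.1 (Subread) and DESeq2 1.14.1, with builds mm10 and GRCm38. The authors deposited scaled counts rounded to whole numbers, treated here as a score. No source used here gives the scaling, the strand setting or the handling of multi-mapping reads. All values were whole and each library's median ratio to the geometric mean lay between 1.0005 and 1.0049, so raw counts could not be used and no count model was run. Values under about 10 rest on few reads.

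Genotypes were taken from the sample titles. The test was limma 3.58.1 (R 4.3.3) on log2(value + 1), two-sided, its empirical Bayes variance following the mean, over the 18436 genes whose mean was 10 or more, with Benjamini-Hochberg adjustment over all of them. The log scale understates changes of low genes. Exon lengths and transcripts came from GENCODE M21 (GRCm38), promoters from RefSeq GRCm38.p6, and coordinates from the deposited table, counted from 1. The fit was tested on simulated data. Alternatives changed the pseudocount, filter, scaling, variance model and replicates.

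All 10 genes were named, with the called genes of each related list (up to 4, or the 2 of smallest p where none was called) and fixed partners such as Psmb5, Irf1 and Calr. A few others are said to be chosen later. Some genes that this rule selects are given by counts only. The genes and lists were chosen with earlier results of these data known. The rest was done in Python 3.11.15 (matplotlib 3.10.9, scipy 1.17.1, numpy 2.4.6, pandas 2.3.3).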

Additional observations from a re-analysis of the deposited data

How the results depend on the processing

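None of the 10 class I presentation genes passed under 11 of the 12 alternatives, the exception being the comparison without mutant replicate 1 (Nlrc5 was not tested with a minimum mean of 50), and leaving out 1 lung at a time gave 0 to 4. Their median fold change stayed below 0, from -0.62 without mutant replicate 1 to -0.25 without mutant replicate 2. Over all genes the calls moved from 440 to 0 when unfiltered (limma, 4876 at an unadjusted p under 0.05), 72 without the variance trend, 766 with the replicate number as a block, and 0 to 2385 with 1 lung left out. The numbers in the titles are not stated to mark litters, and same-numbered lungs did not deviate together (correlation -0.058); the block called none of the 10. In the related lists the block added calls, all lower: H2-Aa (limma, adjusted p = 0.0285), H2-Ab1 (0.0415), B3gnt5 (0.0473), Prdm1 (0.0233) and 6 in place of 2 interferon-induced genes, with the leukocyte markers Cx3cr1, Itgax and Cd79a. The sign of H2-T23 turned to -0.030 with quantile normalization and -0.034 with equal library totals, and its value ranged from -0.046 to 0.14 with 1 lung left out. In the same comparisons Nlrc5 ranged from -0.020 to 0.27 and Psmb7 from -0.32 to 0.00048. The calls of Mr1, Iigp1, Ifit1 and Ifngr1 were lost without the trend, where 72 genes were still called. They were also lost without mutant replicate 2, without either wild-type lung and with no filter, where no gene at all was called. The cause of these changes was not tested. With 2 lungs a genotype, standard errors of 0.13 to 0.32 limited what could be called.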
